A study of Mus musculus with 2 samples.

Results

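The NR4A, EGR and AP-1 immediate early factors were followed in control and RV-Cre-transduced Th17 cells through 10 genes, *Nr4a1*, *Nr4a2*, *Nr4a3*, *Egr1*, *Egr2*, *Egr3*, *Fos*, *Fosl2*, *Jun* and *Junb*. They were picked by gene symbol, each matched 1 of the 23282 rows of the count tables, and all 10 passed the expression minimum. Naïve CD4 T cells came from the spleens of *Fak* fl/fl mice, which were female and 6–8 weeks old. They were activated for 20–24 h with anti-CD3ε (10 μg/ml, bound to the plate) and anti-CD28 (5 μg/ml, in solution). A control retrovirus (MIEG3, named control here) or a retrovirus that also encodes Cre recombinase (RV-Cre) was then introduced. Both groups were held for 3 days with IL-6 (50 ng/ml), TGFβ1 (1 ng/ml), TNFα (1 ng/ml), IL-1β (2 ng/ml), anti-IFNγ (5 μg/ml) and anti-IL-4 (5 μg/ml), and GFP+ cells were sorted. There was 1 library per condition, from 500 ng of total RNA. For the control library, the genotype is labelled WT whereas the title names *Fak* fl/fl cells, and the title was followed. Expression of Cre and loss of *Fak* came together in the RV-Cre library and cannot be told apart, and no library with Cre in cells without floxed *Fak* was analysed here.

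Immediate early genes are transcribed within minutes of T cell receptor signaling without new protein synthesis. Calcium acts through calcineurin on NFAT and MEF2 factors, while ERK acts through ELK factors bound beside SRF, and CREB joins at cyclic AMP response elements. NR4A factors are orphan nuclear receptors, EGR factors are zinc finger proteins, and AP-1 is a dimer of a JUN protein with a FOS, JUN, BATF or ATF protein. In T cells *Nr4a1* is widely read as a sign of recent receptor signaling, EGR2 and EGR3 restrain activation, and JUNB with BATF is needed for the Th17 program.

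The promoters of the NR4A genes and of *Egr2* are shown because the NR4A genes had ratios on both sides of 1 and *Egr2* had the lowest ratio of the 10 factors. The windows come from RefSeq on GRCm38.p6 and hold the 250 bases before the annotated start, 5′ to 3′ on the strand of the gene. Capitals mark TGACG on either strand (the core of the cyclic AMP response element), GCGNGGGCG on either strand (the EGR site) and, in *Egr2*, the CArG box bound by SRF.
Nr4a1, chr15:101266596-101266845, plus strand: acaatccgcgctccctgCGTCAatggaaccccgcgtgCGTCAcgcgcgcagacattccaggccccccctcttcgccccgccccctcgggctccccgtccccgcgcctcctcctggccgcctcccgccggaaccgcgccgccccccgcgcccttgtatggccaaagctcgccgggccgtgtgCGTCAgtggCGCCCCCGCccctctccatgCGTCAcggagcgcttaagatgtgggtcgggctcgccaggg
Nr4a2, chr2:57124004-57124253, minus strand: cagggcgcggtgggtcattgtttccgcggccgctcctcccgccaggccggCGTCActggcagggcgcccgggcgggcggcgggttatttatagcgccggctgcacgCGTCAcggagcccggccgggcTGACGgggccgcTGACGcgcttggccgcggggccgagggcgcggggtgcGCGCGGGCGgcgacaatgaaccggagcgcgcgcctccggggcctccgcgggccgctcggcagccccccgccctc
Nr4a3, chr4:48045055-48045152, plus strand: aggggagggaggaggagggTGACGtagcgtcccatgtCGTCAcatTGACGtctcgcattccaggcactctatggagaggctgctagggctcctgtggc
Egr2, chr10:67537619-67537868, plus strand: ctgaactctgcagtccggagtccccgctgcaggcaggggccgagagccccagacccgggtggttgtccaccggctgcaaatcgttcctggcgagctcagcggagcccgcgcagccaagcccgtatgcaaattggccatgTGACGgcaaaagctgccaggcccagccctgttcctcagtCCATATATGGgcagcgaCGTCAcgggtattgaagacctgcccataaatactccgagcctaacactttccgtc
The *Nr4a3* window was shortened to 98 bases where an exon of another transcript starts. *Egr2* has 5 RefSeq starts, and the window with most matches is shown. The RefSeq table held 8 of the 10 genes and did not list *Egr1* and *Egr3*. TGACG was in at least 1 window of 6 of these 8 genes (*Nr4a1*, *Nr4a2*, *Nr4a3*, *Egr2*, *Fos* and *Junb*), while 19.8% of the 27025 genes in the table held it, counted in the same way. *Nr4a1* and *Nr4a2* had 4 copies each, and 3 copies lay in the shortened *Nr4a3* window. The EGR site was in 3 of 8 (*Nr4a1*, *Nr4a2* and *Fosl2*) against 5.33% of all genes, and the CArG box was in *Egr2* alone of the 8, against 1.62%. The full element TGACGTCA and the AP-1 site TGANTCA were in none of the 8, against 1.77% and 7.82% of all genes. The NR4A genes, whose ratios differed, thus all held TGACG. A match describes these letters only.

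The control library held 13799264 counted reads and the RV-Cre library 12305010 reads. The ribosomal RNA row *Rn45s* took 8.5% of the control reads and 14.6% of the RV-Cre reads. *Ptk2*, the gene for FAK, had 110 reads in control and 31 in RV-Cre, a log2 ratio of −1.62. Reads outside the floxed part still count, so this gives the amount of transcript only. Of the T cell markers, all 8 were detected in both libraries (24038 and 29454 reads in all), and *Cd3e* and *Cd3d* rose with log2 ratios of 1.16 and 1.20. Of the Th17 markers reported here, the cytokine genes *Il17a* and *Il17f* fell, with log2 ratios of −1.86 and −2.23. Values are read counts scaled by the TMM method, and log2 ratios are RV-Cre over control on the log2(normalized count + 1) scale. Ratios given with an interval are ratios of normalized counts without the added 1, so the 2 measures differ at low counts. A gene passed the expression minimum at a log2 value of 4 (15 normalized reads) in at least 1 library, and only a ratio of at least 2-fold was called a change. Since each condition had 1 library, the spread between cultures is unknown and no p-value was computed. The interval given with a ratio is the Clopper-Pearson 95% interval of how the reads split between the libraries. It holds the error of counting reads alone, with reads taken as independent, and says nothing on how conditions would vary.

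None of the 10 factors reached a 2-fold change in either direction. Among all 12112 genes past the minimum, 2-fold or more was reached by 12.3% downward and 14.2% upward in RV-Cre. The log2 ratios of the 10 factors ran from −0.76 (*Egr2*) to 0.47 (*Nr4a3* and *Egr3*), 5 negative and 5 positive, with a median of −0.02 beside −0.01 over all genes. The middle 50% of all genes lay between −0.53 and 0.53, and *Egr2* alone of the 10 lay outside it. Low counts widen the background, so a log2 minimum of 8 was also used, a setting chosen after the data were seen, which kept 9 of the 10 factors, all but *Fos*. Of those 6863 genes, 9.73% fell and 4.62% rose by 2-fold or more, again with 0 of the 9 factors in either direction. At 1.5-fold and this minimum, 21.7% of genes were lower, with 1 of the 9 factors (*Egr2*), and 13.3% were higher, with 0 of the 9. At 1.5-fold with the usual minimum, 22.9% of genes were lower, again with *Egr2* as the only one of the 10. In bulk RNA, fewer cells with a transcript and less transcript per cell cannot be told apart.

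The counting interval lay below 1 for 4 factors (*Nr4a1*, *Nr4a2*, *Egr2* and *Junb*), above 1 for 2 (*Nr4a3* and *Egr3*) and included 1 for the other 4. The same held with 99% intervals. An interval below 1 was found for 38.1% of all genes past the minimum and an interval above 1 for 36.7%, so the 4 of 10 below 1 lay near the background and the 2 of 10 above 1 lay under it. Past the minimum of 8, 82.3% of genes had an interval without 1, and 6 of the 9 factors did.

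**Figure D1:**
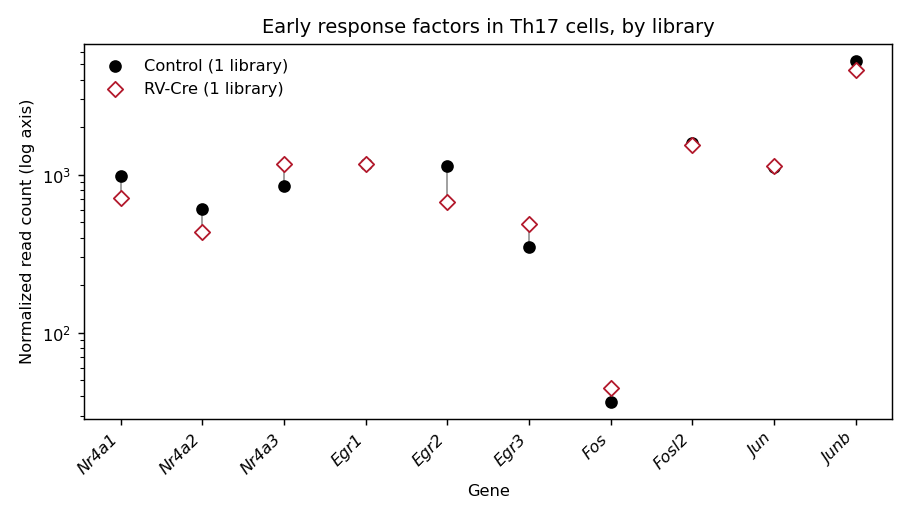
Normalized read count (log axis) of each of the 10 factors in the control library (filled circles) and the RV-Cre library (open diamonds), with a line joining the 2 libraries. *Egr2*, *Nr4a1* and *Nr4a2* sat lower and *Nr4a3* and *Egr3* higher in RV-Cre, whereas the *Egr1*, *Fosl2* and *Jun* symbols nearly coincide.

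The NR4A genes differed in direction. *Nr4a1* (Nur77), on chromosome 15 at 101254269–101274795, had 1045 reads in control and 673 in RV-Cre. This made 984 and 715 normalized counts, a ratio of 0.727 (0.659–0.801) and a log2 ratio of −0.46. *Nr4a2* (Nurr1), on chromosome 2 at 57106830–57124003, had 647 and 408 reads, a ratio of 0.712 (0.627–0.807) and a log2 ratio of −0.49. *Nr4a1* and *Nr4a2* were thus both lower in RV-Cre by less than 2-fold, with intervals that overlapped. *Nr4a3* (Nor1), on chromosome 4 at 48045153–48086447, had 900 reads in control and 1107 in RV-Cre, a ratio of 1.39 (1.27–1.52) and a log2 ratio of 0.47. It was the NR4A gene with more reads in RV-Cre, although that library was the smaller one. Summed, the NR4A genes had 2592 and 2188 reads, a ratio of 0.953 (0.899–1.01), so that the opposite differences nearly cancelled in the sum. Gene positions here and below are those of GENCODE M21 on GRCm38 (mm10).

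A share of the reads of a family is taken within 1 library and does not depend on how the libraries were scaled. It is a share of reads and does not rank the genes by molecules, since the yield of reads can differ between transcripts. *Nr4a3* made up 34.7% (32.9–36.6) of the NR4A reads in control and 50.6% (48.5–52.7) in RV-Cre. *Nr4a1* went from 40.3% to 30.8% and *Nr4a2* from 24.96% to 18.65%. *Nr4a1* was therefore first in the control library and *Nr4a3* first in RV-Cre. The ratio of *Nr4a3* to *Nr4a1* reads was 1.91 times as high in RV-Cre as in control (exact conditional interval 1.67–2.18), and that of *Nr4a3* to *Nr4a2* 1.95 times (1.67–2.28). The *Nr4a1* to *Nr4a2* ratio differed by a factor of 1.02 (0.870–1.20), within counting error.

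The EGR genes, zinc finger factors that share the GC-rich EGR site, also had ratios that differed from one another. *Egr1*, the best studied of them, had 1237 reads in control and 1104 in RV-Cre, or 1164 and 1173 normalized counts, a ratio of 1.01 (0.928–1.09). Of all genes past the minimum, 99.1% had a log2 ratio larger in size. *Egr2*, on chromosome 10 at 67535475–67542188, had 1204 and 629 reads, or 1133 and 668 normalized counts. Its ratio of 0.590 (0.535–0.650) and log2 ratio of −0.76 were the farthest from no difference among the 10 factors, yet 36.6% of all genes past the minimum had a larger one. *Egr3*, on chromosome 14 at 70077203–70082614, had 372 and 457 reads, a ratio of 1.39 (1.21–1.59) and a log2 ratio of 0.47. The EGR genes together had 2813 and 2190 reads, a ratio of 0.879 (0.830–0.929).

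*Egr1* and *Egr2* had nearly the same share of EGR reads in control, 44.0% and 42.8%, with overlapping intervals (42.1–45.8 and 41.0–44.7). In RV-Cre the shares were 50.4% for *Egr1* and 28.7% for *Egr2*, while *Egr3* went from 13.2% to 20.9%. The ratio of *Egr3* to *Egr2* reads was 2.35 times as high in RV-Cre (1.98–2.79). *Egr1* over *Egr2* was 1.71 times (1.503–1.942) and *Egr3* over *Egr1* 1.38 times (1.17–1.62) as high. *Egr2* and *Egr3*, often described together in T cells, thus lay farthest apart of the EGR pairs.

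**Figure D2:**
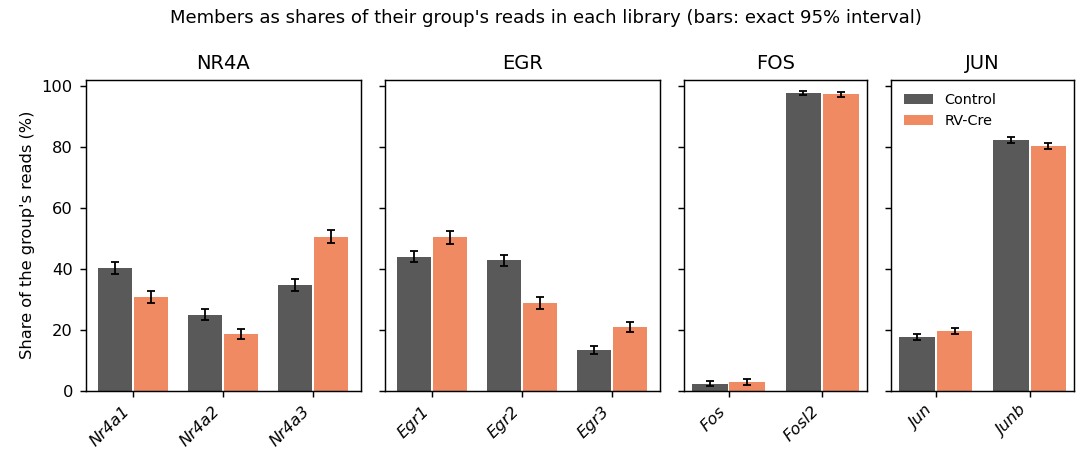
Share of each family's reads (%) held by each gene in the control library (grey) and the RV-Cre library (orange), with exact binomial 95% intervals as error bars. *Nr4a3* went from 34.7% to 50.6% of NR4A reads and *Egr2* from 42.8% to 28.7% of EGR reads, while the FOS shares had overlapping intervals.

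Of the FOS genes, *Fos* was scarce after 3 days of culture. *Fos*, on chromosome 12 at 85473890–85477273, had 39 reads in control and 42 in RV-Cre, 2.83 and 3.41 CPM (counts scaled to a fixed library total). Its ratio of 1.22 had an interval from 0.767 to 1.93, so a difference of less than about this size was not detectable at this depth. *Fosl2* (Fra-2), on chromosome 5 at 32135801–32157842, had 1694 and 1459 reads, or 1595 and 1550 normalized counts. The ratio was 0.972 (0.906–1.04) and the log2 ratio −0.04. *Fos* took 2.25% (1.61–3.06) of the reads of the pair in control and 2.80% (2.02–3.76) in RV-Cre, and the ratio of *Fos* to *Fosl2* differed by a factor of 1.25 (0.784–2.00). Neither FOS gene was separated from a ratio of 1 by counting error.

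*Jun*, the founding JUN gene, lies on chromosome 4 at 95049034–95052222 on the minus strand. It had 1197 reads in control and 1065 in RV-Cre, or 1127 and 1131 normalized counts, a ratio of 1.00 (0.924–1.09). An antisense gene, *Junos*, overlaps 689 bases of it and has no row of its own in the count tables. *Junb*, on chromosome 8 at 84974484–84978718, had 5565 and 4349 reads, or 5239 and 4620 normalized counts. Its ratio was 0.882 (0.847–0.918) and its log2 ratio −0.18, a small difference with a narrow interval. The last 351 bases of *Junb* overlap the end of *Prdx2*, an antioxidant gene on the opposite strand with 1840 and 1756 reads. No source used here says whether strand was used in counting, so *Junb* and *Prdx2* reads there may be mixed. If every *Prdx2* read is taken away from *Junb*, 3725 and 2593 reads are left, a ratio of 0.785 (0.747–0.826) and a log2 ratio of −0.35. *Jun* over *Junb* was 1.14 times as high in RV-Cre (1.04–1.25), and *Jun* made up 17.7% and 19.7% of the JUN reads. The summed JUN reads, 6762 and 5414, had a ratio of 0.904 (0.872–0.937).

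Across the 4 families, 6 of the 8 pairs of genes from the same family had a ratio of reads that differed between the libraries beyond counting error, all but *Nr4a1* with *Nr4a2* and *Fos* with *Fosl2*. Over all pairs of genes past the minimum, with reads in both libraries and a normal approximation of the interval, 72.0% did. Of all 45 pairs of the 10 factors, 30 had ratios with intervals that did not overlap, beside 64.2% of all pairs of genes past the minimum. Both counts lay near their background and are not read as a trait of these factors. The background pairs also include genes under the log2 minimum of 8, which 9 of the 10 factors passed. Low counts widen the intervals, and no background of pairs past that minimum was computed. Scaling by 1 factor per library leaves the differences between the 10 genes as they are and moves their distance from no difference. Quantile normalization works differently, and brought *Fos* to 0.085 and *Fosl2* to 0.050. *Nr4a1*, *Nr4a2* and *Egr2* stayed negative and *Nr4a3*, *Egr3* and *Fos* positive under every scaling tried, while *Egr1*, *Fosl2*, *Jun* and *Junb* changed sign. Scaling to *Gapdh* (956 and 634 reads) raised the median of all genes by 0.41, more than any other scaling, and gave *Egr2* −0.34, *Nr4a1* −0.04 and *Nr4a3* 0.89.

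**Figure D3:**
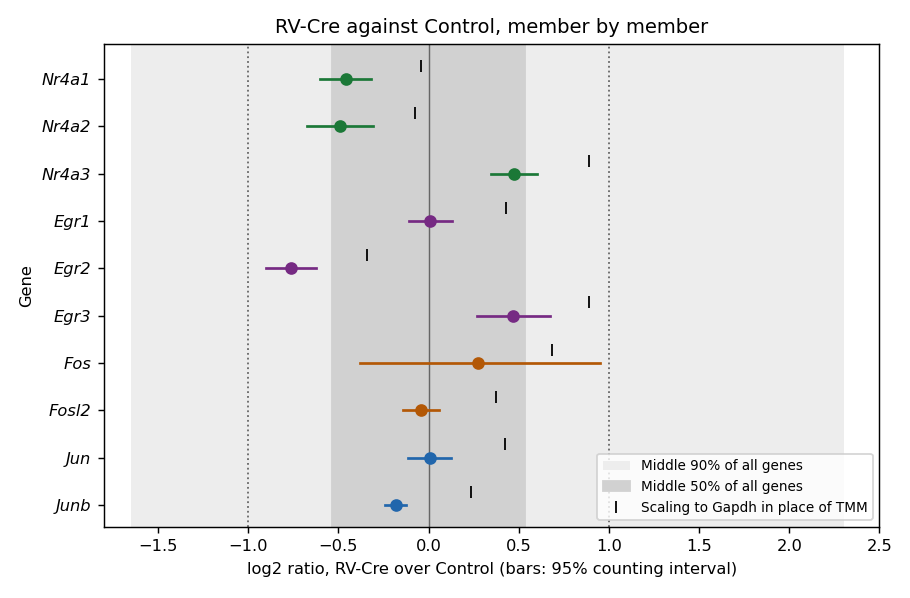
log2 ratio of RV-Cre over control for each factor (circles) with 95% counting intervals (bars), over the middle 50% (dark band) and middle 90% (light band) of all genes past the minimum. Dotted lines mark 2-fold and vertical ticks the value with scaling to *Gapdh*, and every circle lies between the dotted lines, from −0.76 to 0.47.

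**Figure D4:**
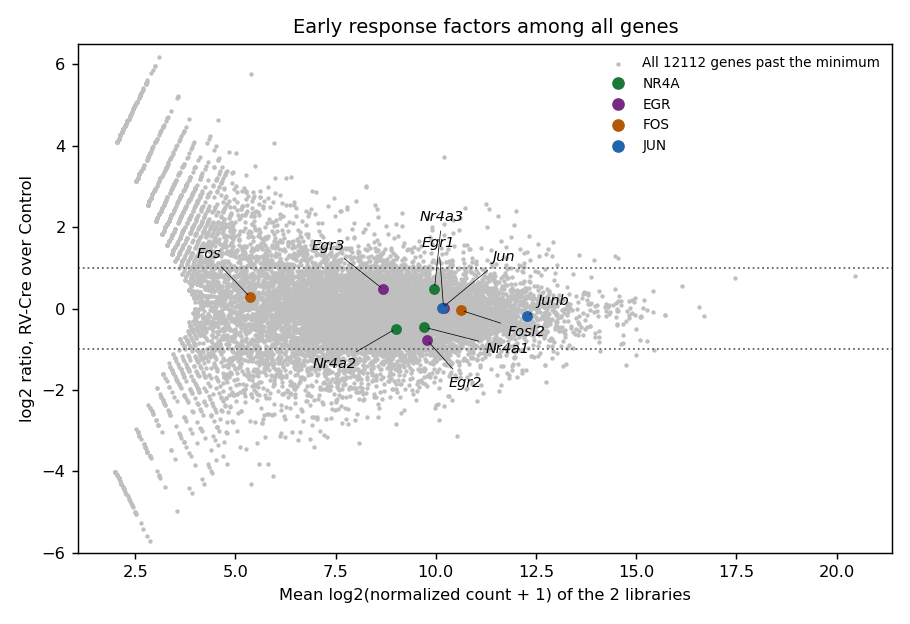
log2 ratio of RV-Cre over control against the mean log2(normalized count + 1) of the 2 libraries for all 12112 genes past the minimum (grey), with the 10 factors in color by family and dotted lines at 2-fold. The spread of all genes widens to the left, where *Fos* lies, and the other 9 factors lie to the right of *Fos*, between the dotted lines.

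Other proteins that form AP-1 or related dimers were then examined. Of 13 genes, 12 passed the minimum, 1 fell and 1 rose, with a median log2 ratio of 0.20. For this list and those below, 12.3% of all genes past the minimum fell and 14.2% rose by 2-fold or more. *Fosl1* (Fra-1) fell from 172 to 41 reads, a ratio of 0.269 (0.186–0.380) and a log2 ratio of −1.87. *Fosl1* overlaps 2767 bases of *Ccdc85b*, with 294 and 114 reads. *Jund*, the JUN protein that is usually present in resting cells, rose from 3111 to 7097 reads, a ratio of 2.57 (2.47–2.69) and a log2 ratio of 1.36, and an antisense gene with no row overlaps it. *Jund* and *Fosl1* were thus called where *Jun*, *Junb* and *Fosl2* were not.

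*Batf*, the partner of JUNB in Th17 cells, had 2078 and 1267 reads, a log2 ratio of −0.54, and *Batf3* had 111 and 106 reads (0.11). *Batf2* had 9 and 0 reads, below the minimum and not called. Of the small MAF genes, *Maff* had 404 and 200 reads (−0.84), *Mafg* 1254 and 719 (−0.63) and *Mafk* 620 and 671 (0.29), and *Mafg* overlaps *Sirt7*. *Atf2*, *Atf7* and *Atf3* had log2 ratios of 0.38, 0.30 and −0.18. *Jdp2*, a repressor of AP-1, had 31 and 44 reads (0.66), and *Fosb* had 14 and 21 reads (0.72). Apart from *Batf2*, these values stayed below 2-fold.

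Of 6 EGR and NR4A partners, 4 passed the expression minimum, and none of these 4 reached 2-fold, with a median log2 ratio of 0.07. *Nab1* and *Nab2* encode corepressors of EGR proteins. *Nab1* had 710 and 1005 reads (log2 ratio 0.67) and *Nab2* 852 and 671 reads (−0.17), the latter with 40 bases shared with *Stat6*. The retinoid X receptors *Rxra* and *Rxrb*, which pair with NR4A1 and NR4A2, had 190 and 153 reads (−0.14) and 682 and 728 reads (0.27). *Rxrg* had 0 reads in both libraries and *Egr4* had 12 and 2 reads (log2 ratio −1.98), below the minimum and not called.

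Of 17 nuclear factors that act upstream of these genes, 2 rose and 0 fell, with a median log2 ratio of 0.05. *Mef2c* rose from 35 to 184 reads (log2 ratio 2.53) and *Mrtfa*, a cofactor of SRF listed as *Mkl1*, from 250 to 459 reads (1.05). *Mrtfb*, its relative, had 179 and 272 reads (0.77). The lowest ratios were those of the CREB coactivator *Crtc2* with 34 and 16 reads (−0.88), the SRF partner *Elk1* with 345 and 185 reads (−0.72) and *Nfat5* with 1030 and 639 reads (−0.51). *Elk1* overlaps *Uxt*, which had 344 and 317 reads. Of 15 kinases and calcineurin subunits, 1 fell and 1 rose, with a median of 0.10. *Map2k1* (MEK1) fell from 661 to 261 reads (−1.16). The gene *Uchl4* lies inside *Map2k1* on the other strand and had 796 and 318 reads. Whether both rows share reads is not known. *Prkcq*, the protein kinase C of the T cell synapse, rose from 486 to 1044 reads (1.28). The calcineurin subunit *Ppp3ca* had 203 and 350 reads (0.96) and *Rps6ka1* 632 and 836 reads (0.58), while *Rps6ka3* had 1043 and 562 reads (−0.72) and *Mapk8* (JNK1) 926 and 532 reads (−0.62).

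Other early response genes held both called and uncalled members. Of 31, 29 passed the minimum, 6 fell and 5 rose, with a median of −0.12, beside 12.3% and 14.2% of all genes that fell and rose. The other 18 stayed below 2-fold. *Myc* fell from 1678 to 315 reads (log2 ratio −2.24), *Rgs1*, a brake on chemokine receptors, from 3659 to 831 reads (−1.96), and *Tnfaip3* (A20), an inhibitor of NF-κB, from 363 to 96 reads (−1.73). *Klf2*, a factor of quiescent T cells, rose from 1175 to 5668 reads (2.44) and *Ier3* from 445 to 1031 reads (1.38). With *Klf2* in it, the list does not stand for genes induced by receptor signaling alone, and nor do its counts. *Ccn1* (listed as *Cyr61*) had 2 and 23 reads, a ratio of 13.0 with an interval of 3.21–114 and a log2 ratio of 3.14. The other genes called, named after their values were seen, were *Klf10*, *Zfp36l2* and *Dusp2*, which fell, and *Btg1* and *Zfp36*, which rose.

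Of 10 cytokine and receptor genes known as targets of NFAT with AP-1, 7 passed the minimum. Of these, 4 fell and 0 rose, with a median of −1.07, beside 12.3% and 14.2% of all genes that fell and rose. *Lta* (lymphotoxin α) fell from 4667 to 472 reads (log2 ratio −3.13), *Ifng* from 126 to 41 reads (−1.42) and *Tnf* from 1787 to 686 reads (−1.21). *Il2*, named after its value was seen, fell from 602 to 254 reads (−1.07). *Il2ra* had 13199 and 8627 reads (−0.44), *Il3* had 25 and 20 reads (−0.14) and *Cd40lg*, the ligand of CD40, had 132 and 221 reads (0.91). Of the 3 below the minimum, *Csf2* and *Il4* had 0 reads in both libraries and *Fasl* had 8 and 0 reads. Of 10 genes linked to EGR2 or EGR3 in T cells, all 10 passed, 4 rose and 0 fell, with a median of 0.64. The ubiquitin ligase gene *Cblb* rose from 88 to 198 reads (1.33) and *Dgka*, a diacylglycerol kinase that dampens RAS signaling, from 3221 to 7512 reads (1.40). *Dgka* overlaps *Pmel* on the other strand, whose row had 2828 and 6855 reads, and both rows may share reads. *Rnf128* (GRAIL) had 2 and 23 reads, a ratio of 13.0 (3.21–114) and a log2 ratio of 3.14. *Lag3*, named after its value was seen, rose from 35 to 72 reads (1.19). *Socs1* had 1531 and 901 reads (−0.59), *Ndrg1* had 145 and 104 reads (−0.30) and *Prdm1* had 87 and 65 reads (−0.24).

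**Figure D5:**
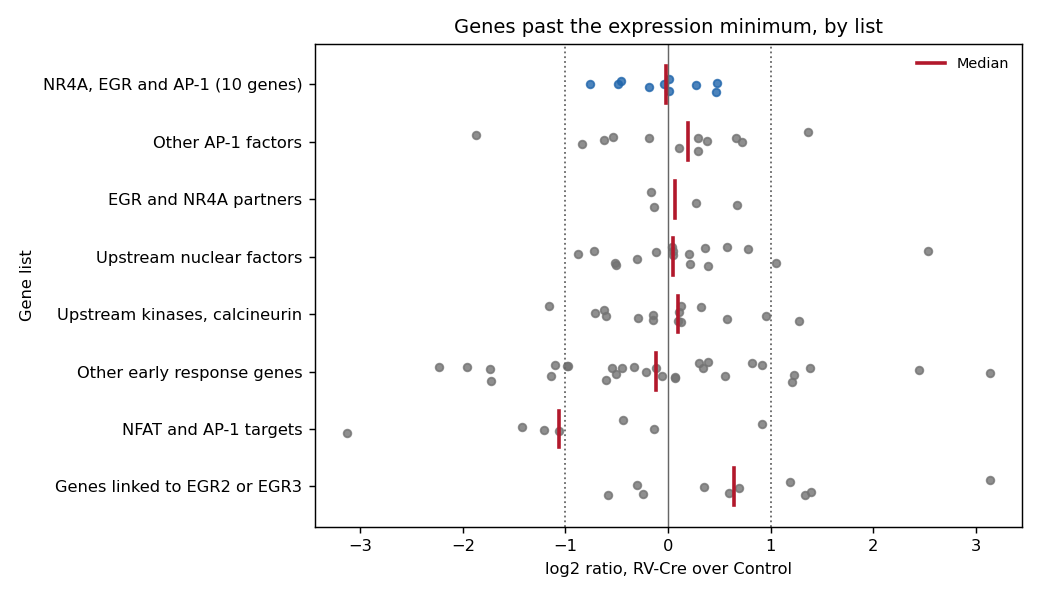
log2 ratio of RV-Cre over control of each gene past the expression minimum, by list, with the 10 factors in blue, other lists in grey, medians as red bars and dotted lines at 2-fold (vertical scatter has no meaning). The 10 factors lie between −0.76 and 0.47, while other early response genes run from −2.24 to 3.14 and NFAT and AP-1 targets have a median of −1.07.

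Markers of other cell types were counted in the same libraries. Of the 5 B cell markers reported here, 4 passed the minimum and 2 rose, with 46 reads in all in control and 73 in RV-Cre (3.33 and 5.93 CPM). The defining factor *Pax5* was at 0 in both, *Ebf1* had 15 and 16 reads and *Cd79b* 18 and 11, while *Cd79a* rose from 6 to 30 and *Ms4a1* from 7 to 16 reads. Of 8 myeloid markers, 6 passed, 1 rose (*Csf1r*, 16 and 110 reads) and 1 fell (*Lyz2*, 22 and 7 reads), with sums of 342 and 483 reads (24.8 and 39.3 CPM). *Adgre1* had 0 and 8 reads and *Itgam* 7 and 3. *Fcer1g* had 177 and 242, *Cd68* had 63 and 58, *Fcgr3* had 43 and 34 and *Cd14* had 14 and 21. Of 6 CD8 and NK cell markers, 4 passed, with sums of 511 and 894 reads (37.0 and 72.7 CPM). *Cd8a* rose from 322 to 580 reads and *Cd8b1* from 122 to 274, while *Klrk1* fell from 41 to 9. *Eomes* had 14 and 23 reads, *Ncr1* 0 and 8 and *Klrb1c* 12 and 0. The part of these cells in the values of the 10 factors, which many cell types express, was not tested. The remaining T cell markers, *Cd3g*, *Cd4*, *Lck*, *Cd28*, *Cd2* and *Cd5*, had log2 ratios of 0.25, 0.02, 0.14, 0.26, 0.94 and −0.99. *Ccr6* had 601 and 313 reads (−0.77) and *Il23r* 9 and 10 reads, below the minimum.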

How the data were processed

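RNA-seq of 1 control and 1 RV-Cre Th17 library was used, prepared with a Lexogen kit that the labels call Quant-Seq. The authors deposited raw read counts per gene symbol, without normalization. The submitters' processing notes name bcl2fastq 2.20.0.422, Bowtie2, bedtools and the build mm10. Read filters and strand setting are not given in the sources used here, so rows of genes that overlap may share reads. The tables list 23282 rows, of which 79 share a symbol and were left out of gene lists.

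Counts were scaled with TMM factors of edgeR 4.0.16 in R 4.3.3 (size factors 1.06 for control and 0.941 for RV-Cre) and compared as log2(normalized count + 1). Intervals came from scipy 1.17.1 in Python 3.11.15. The intervals cover counting error only and treat reads as independent. Reads from the same molecule are not independent, so the intervals may be too narrow even for counting error. No test was run across genes.

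The factors, gene lists and tests were chosen with earlier results of these data known. Genes named are *Ptk2*, the 10 factors, every AP-1, EGR and NR4A partner, cell type markers and, of other lists, the 3 lowest and 3 highest ratios past the minimum. With 2 libraries no gene was named for a like pattern. Mitochondrial transcripts were not used here, and some markers are not reported here. The procedure was run on simulated counts with planted changes. Reads there were independent, as the intervals assume, and cultures did not vary. That run therefore checks the calculation only and says nothing on how well the intervals hold in these data. Alternatives were other scalings (among them DESeq2 1.42.0 size factors), pseudocounts, minimums, thresholds and a 99% interval.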

Additional observations from a re-analysis of the deposited data

How the results depend on the processing

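No paired analysis was possible because there is 1 library per condition and no result comes from a test. A minimum of 8, its combination with 1.5-fold, the subtraction of *Prdx2*, the ratios of reads within families and the counts of intervals under other scalings were chosen after the data were seen. No replicate could be left out.

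No factor reached 2-fold under any scaling, pseudocount or minimum. At 1.5-fold, 1 factor (*Egr2*) was lower, also with a minimum of 8. Library totals, DESeq2 size factors, median centring and pseudocounts of 0.1 and 10 moved none of the factors, families or their median beyond counting error. Library totals without *Rn45s*, which shifted the median of all genes by 0.09, gave *Junb* −0.091 and summed reads of −0.096 (EGR), −0.056 (JUN) and 0.020 (NR4A), the last with the other sign. Quantile normalization (shift 0.05) gave *Junb* −0.087, EGR −0.086, JUN −0.050 and NR4A 0.039. Scaling to *Gapdh* shifted the median of all genes by 0.41 and that of the factors to 0.40. It gave *Nr4a1* −0.042, *Nr4a2* −0.073, *Nr4a3* 0.89, *Egr1* 0.43, *Egr2* −0.34, *Egr3* 0.89, *Fosl2* 0.38, *Jun* 0.42 and *Junb* 0.24, with NR4A at 0.35, EGR at 0.23, FOS at 0.38 and JUN at 0.27. With it, 1 factor had an interval below 1 and 7 above 1, so which factors differ from no difference rests on the scaling. *Junb* less all *Prdx2* reads was at −0.35.

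Over all genes, scaling to *Gapdh* gave 780 lower and 2960 higher, no minimum 2441 and 3265, 1.5-fold 2777 and 2847, and 3-fold 669 and 1008. The higher genes numbered 734 at a minimum of 6, 758 with the minimum of 4 in both libraries, and 913 at a minimum of 8 with 1.5-fold. At a minimum of 8 with 2-fold, 668 were lower and 317 higher. Higher genes made up 53.6% of those called, 60.2% without *Rn45s*, 48.3% with quantile normalization and 79.1% with *Gapdh* scaling. Of the values of other listed genes under the scaling and pseudocount alternatives, 921 moved by less than counting error, 167 by more, and 0 changed from a call in one direction to the other.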

Other observations

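Heat shock and other stress genes, which can respond to the handling of cells as early genes do, were listed beside the factors. Of 15, 14 passed the expression minimum, 1 rose and 0 fell, with a median log2 ratio of −0.23. *Hspb1* rose from 6 to 28 reads (log2 ratio 2.21). *Hspd1*, a mitochondrial chaperonin, had 14776 and 7014 reads (−0.90), *Hspa8* had 23339 and 12703 reads (−0.70) and *Hspe1*, the cofactor of HSPD1, had 6248 and 3783 reads (−0.55). The stress factor *Ddit3* (CHOP) had 1085 and 1656 reads (0.78) and *Dnajb1* had 715 and 813 reads (0.36). The part of handling in the values of the factors was not tested.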
